A study of Mus musculus with 29 samples.

Results

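The Pou4f3 core sites are stretches of the mouse genome that carried a Pou4f3 peak in every line in which Pou4f3 was induced. They carried no Atoh1 peak in any of the 4 lines in which Atoh1 was induced, the only lines with an Atoh1 ChIP. The core sites were found by centring a 300 bp window on each summit of 9 deposited peak lists and joining windows that shared 1 bp or more, which gave 78408 joined sites. Of these, 7032 had a peak in all 4 Pou4f3 lists, and the 5208 of them without a peak in any of the 4 Atoh1 lists are the core sites. The other 1824 also carried an Atoh1 peak. Another 4079 sites without Atoh1 had a peak in 3 Pou4f3 lists, 5909 in 2 and 17935 in a single list. Because the core sites were chosen by the peaks of the Pou4f3 and Atoh1 lists, the strength of their Pou4f3 peaks and their lack of Atoh1 peaks are given below as a description and are not tested.

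All cells came from A2loxCre-derived mouse embryonic stem cell (mESC) lines grown as embryoid bodies, and in every line, inputs included, 2 µg/ml doxycycline was given for 48 h to switch on a polycistronic cassette with a Venus reporter, and cells were collected on day 6. The iPou4f3 line carried Pou4f3 alone, iG+P carried Gfi1 and Pou4f3, iP+A carried Pou4f3 and Atoh1, and iGPA carried Gfi1, Pou4f3 and Atoh1. The iAtoh1 line carried Atoh1 alone and iG+A carried Gfi1 and Atoh1. ChIP used a MYC tag on Pou4f3, a FLAG tag on Atoh1 and, for Gfi1, an antibody raised against the protein. The Pou4f3 lists were therefore aimed at the induced, tagged protein in embryoid bodies and not at the endogenous factor of an inner ear. No library without the tagged Pou4f3 was precipitated through the MYC tag. Background that recurs in all 4 Pou4f3 lists can therefore not be told apart from binding. The series held 29 libraries, 17 of ChIP and 12 of input, from 6 lines. The design text gives replicates as different clones of a line, but it describes a set of samples with untreated controls, and whether this holds for the ChIP libraries is not stated. Each of the 4 Pou4f3 lists and 4 Atoh1 lists was called on merged libraries, 2 per list, and the Gfi1 list on 1 library, so no value below has a replicate spread and no p-value is given. The read depth behind the lists is unknown. Intervals are 95% Clopper-Pearson intervals of a share of sites, or Newcombe intervals of a difference between shares, and cover counting error only.

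The labels of the lines were checked at the coding exons of the inserted genes. At Atoh1, a kept peak was found in both Pou4f3 lists of lines labelled with Atoh1, with a fold enrichment of 6.68 in iP+A and 3.32 in iGPA, and in neither Pou4f3 list of the lines labelled without it. The exons of Pou4f3 and Gfi1 carried kept peaks also in lines labelled without them, with a fold of 2.69 at Pou4f3 in iAtoh1 and 3.45 at Gfi1 in iPou4f3, so they check nothing.

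Pou4f3 belongs to the class IV POU homeodomain factors. Its POU-specific domain and its homeodomain are joined by a linker and each contact a short stretch of an AT-rich sequence. In the inner ear it is expressed in hair cells after Atoh1 and is needed for their maturation and survival, and its relatives Pou4f1 and Pou4f2 act in sensory ganglion neurons and retinal ganglion cells. Gfi1 is a zinc finger factor that acts in hair cells and blood. It is known as a repressor, and the authors propose that it is also a co-activator of Atoh1. Atoh1 is a basic helix-loop-helix factor that binds E-boxes.

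Of the 8 core sites with the highest value of the lowest of their 4 fold enrichments, 7 are printed first, because they show the letters found under Pou4f3 peaks that were strong in every line. Each run is 81 bases of the plus strand of mm9 around the site centre, the median Pou4f3 summit. Capitals mark the Pou4f pattern ATAATTAAT with at most 1 mismatch, TGCATNATT or GCATNATGC on either strand. The last 2 of these were chosen after the core sequences had been seen.
Gemin5, chr11:57982203-57982283: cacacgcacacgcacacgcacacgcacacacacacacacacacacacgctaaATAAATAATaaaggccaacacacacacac
Mki67, chr7:143412537-143412617: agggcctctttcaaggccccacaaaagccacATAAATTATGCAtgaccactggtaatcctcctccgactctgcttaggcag
Coro1b, chr19:4148071-4148151: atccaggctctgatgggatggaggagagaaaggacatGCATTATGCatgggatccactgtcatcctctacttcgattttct
Odz3, chr8:49559938-49560018: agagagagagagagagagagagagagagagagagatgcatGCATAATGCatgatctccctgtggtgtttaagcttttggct
Gm8730, chr8:105988798-105988878: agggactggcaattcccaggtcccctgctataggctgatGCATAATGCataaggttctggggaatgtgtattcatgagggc
Rap1b, chr10:117307090-117307170: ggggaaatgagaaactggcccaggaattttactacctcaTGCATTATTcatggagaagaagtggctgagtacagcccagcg
Gm4419, chr12:21534531-21534611: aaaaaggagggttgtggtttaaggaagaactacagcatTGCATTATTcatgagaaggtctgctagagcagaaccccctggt

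In the following, a fold is the deposited enrichment of ChIP over the local background at the summit. Each site is named by the gene with the nearest start, with starts of small RNAs and pseudogenes left out. The site 202 bp upstream of the start of Gemin5, whose protein binds small nuclear RNAs, had folds of 28.8 (iPou4f3), 21.8 (iG+P), 18.0 (iP+A) and 26.5 (iGPA). Its folds lay closer together than those of the intergenic site whose nearest start, 504515 bp away, is that of Mki67, the proliferation marker Ki-67, with 51.9 (iPou4f3), 23.2 (iG+P), 17.3 (iP+A) and 42.5 (iGPA). The site 508 bp upstream of Coro1b, an actin-binding coronin, had folds of 43.7, 34.0, 17.1 and 55.0 in the same order of lines. In an intron of Odz3, which encodes the axonal adhesion protein teneurin 3, the folds were 24.6, 26.8, 16.3 and 45.6. These sites thus lay both beside promoters and far from any start that was counted.

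The intergenic site nearest to Gm8730 had folds of 29.0 (iPou4f3), 20.8 (iG+P), 16.0 (iP+A) and 36.1 (iGPA). The site 24139 bp upstream of Rap1b, a small GTPase, had folds of 33.8, 21.6, 15.1 and 34.4, and the site nearest to Gm4419 32.3, 14.6, 14.5 and 25.9. At all 7 sites the lowest fold was that of iP+A, and the highest was that of iPou4f3 or iGPA. Of the 7, 2 held the Pou4f pattern within 250 bp around the centre, and the other 5 held TGCATNATT or GCATNATGC.

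**Figure D1:**
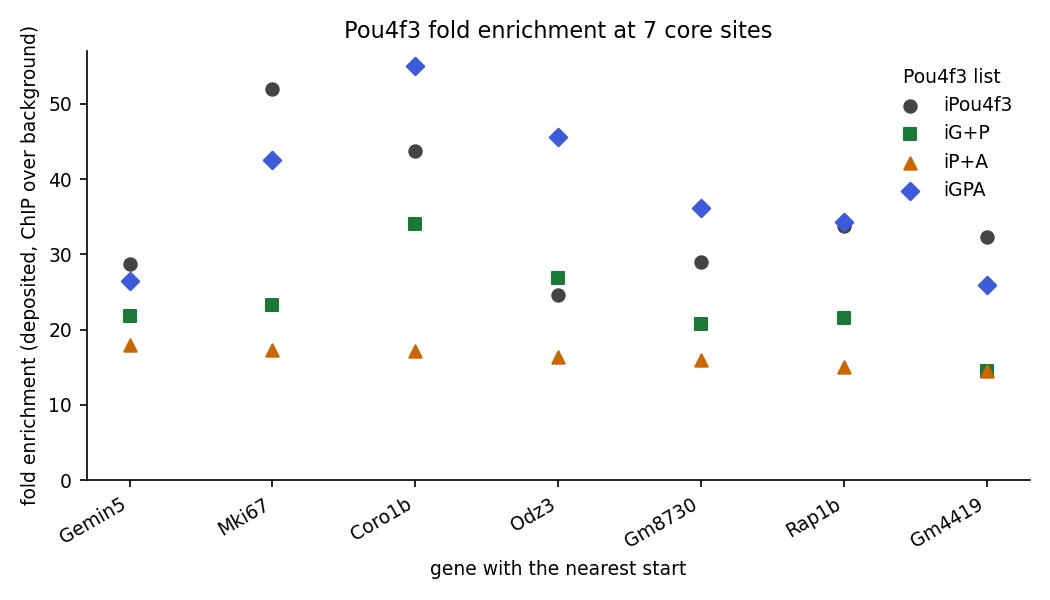
Deposited Pou4f3 fold enrichment (linear axis from 0) in the 4 Pou4f3 lists at 7 of the 8 core sites with the highest lowest fold, each named by the gene with the nearest start. Every point is a value from a merged list without a replicate spread, and the iP+A points sit at the bottom of all 7 columns, between 14.5 and 18.0.

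Across the 5208 core sites the 4 lists differed in level. The median fold was 5.83 in iGPA (quartiles 4.37 to 8.01) and 4.87 in iPou4f3 (quartiles 3.80 to 6.66). It was 4.60 in iG+P, with quartiles of 3.61 and 6.13, and 3.51 in iP+A, with quartiles of 3.06 and 4.42. The iGPA fold was the highest of the 4 at 3326 sites (63.9%) and the iP+A fold the lowest at 3801 (73.0%). Over whole lists iGPA also came first, with a median fold of 4.08 in iGPA, 3.33 in iPou4f3, 3.17 in iP+A and 2.96 in iG+P. No list was scaled against another, so these levels carry the efficiency of each ChIP as well as binding, and the 2 cannot be told apart. Within the core sites, the rank of a site was shared between lines, with a Spearman's rho across sites of 0.577 to 0.746 for the 6 pairs of lists. The 5208 points share the genome's mappability and background, and rho is a description.

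The core sites made up 30.6% of the peaks kept in iP+A, 27.9% in iGPA, 23.3% in iPou4f3 and 16.2% in iG+P, the longest list with 32632 peaks. Most were compact: 5034 consisted of exactly 4 peaks, the outermost Pou4f3 summits lay a median of 37 bp apart, and 88.5% of sites had all of them within 100 bp. The lowest of the 4 folds had a median of 3.40 and ranged from 2.21 to 33.2. It was at least 5 at 694 sites and at least 10 at 45.

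The Pou4f pattern was not used to choose the sites. Searched with at most 1 mismatch on both strands of the 250 bp around the centre, ATAATTAAT was found at 3382 of 5208 core sites, or 64.9% (63.6 to 66.2%). Over all joined sites the share was 25%, and in the flanks of the core sites, windows of the same length 1000 bp away, it was 10.9%. Among Pou4f3 sites without Atoh1 the share was 61.8% in 3 lists, 54.0% in 2 and 36.3% in a single list. The core sites lay 28.6 percentage points (27.2 to 30.1) above sites of a single list, with the core higher on 20 of 20 chromosomes. Their lead over sites of 3 lists was 3.16 points (1.18 to 5.13) and held on 16 of 20 chromosomes. Sites in all 4 Pou4f3 lists that also carried an Atoh1 peak had the pattern at 47.1%, 17.8 points (15.1 to 20.4) below the core sites. Single-list sites had weaker peaks than core sites, with median folds of 2.93 (iPou4f3), 2.74 (iG+P), 2.72 (iP+A) and 3.35 (iGPA). Of the 17935, 9074 came from iG+P. In this comparison, and in those of starts and Gfi1 peaks below, recurrence across lines and peak strength cannot be told apart.

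**Figure D2:**
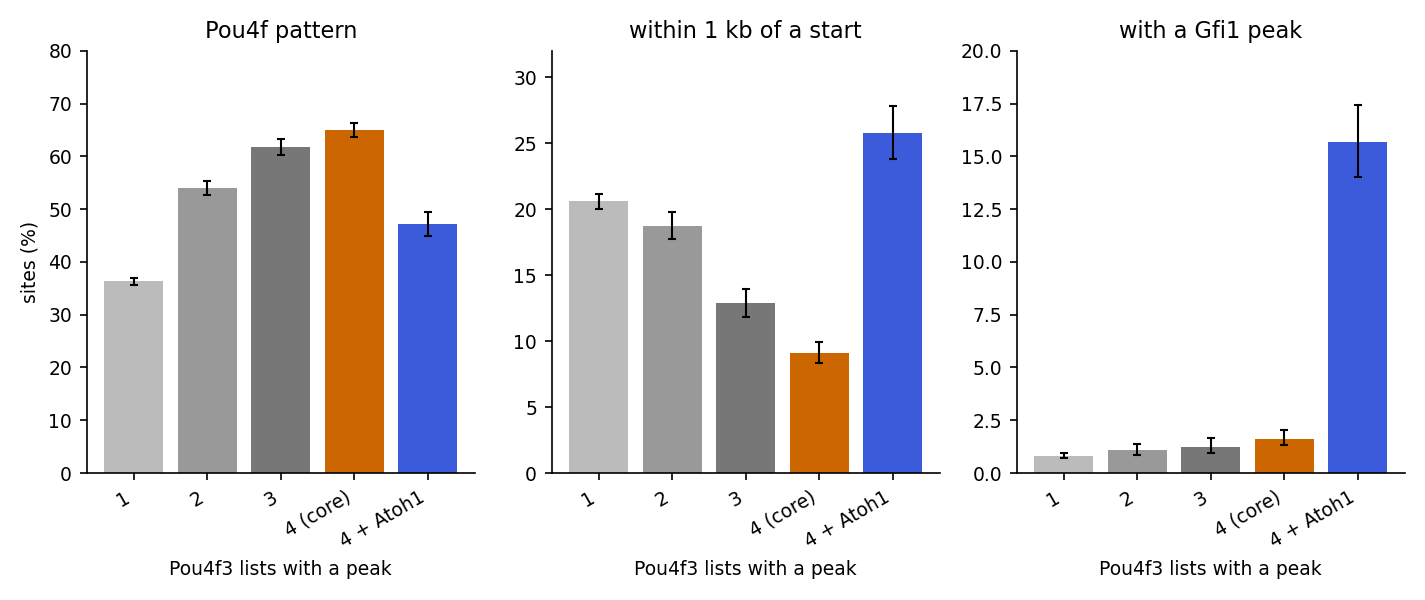
Share of sites (%, bars from 0) with the Pou4f pattern, with a transcription start within 1 kb and with a Gfi1 peak, for sites in 1, 2 or 3 Pou4f3 lists without Atoh1, the core sites in 4, and sites in 4 that also had an Atoh1 peak; whiskers are 95% Clopper-Pearson intervals. From 1 list to the core sites the pattern share goes from 36.3 to 64.9% and the share near a start from 20.6 to 9.12%, while sites with Atoh1 stand apart at 25.8% near a start and 15.7% with a Gfi1 peak.

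Matches sat under the summits. The nearest one lay a median of 10 bp from the site centre, and 78.8% of sites with the pattern had it within 25 bp, a span that takes up 20.4% of the window searched. At 1472 core sites (28.3%) the pattern matched at 2 or more positions. Exact letters were uncommon: ATAATTAAT itself was found at 745 core sites (14.3%), and the most frequent form was ATAAATAAT, at 986 (18.9%), against 9.26% of sites of a single list. ATTATTAAT was found at 750 core sites, ATAATTTAT at 638 and ATAATTCAT at 430.

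AT-rich letters follow base composition, and the core sites were AT-rich, with a mean GC content of 41.8% (SD 7.59 over sites, n = 5208) against 45.8% for sites of a single list and 50.5% for sites that also had Atoh1. The comparison was therefore repeated within 3 groups of GC content, cut at 38.8 and 43.6%. The pattern share of the core sites was 83.9% in the lowest group, 54.8% in the middle and 55.5% in the highest, and that of single-list sites was 62.0, 43.1 and 14.7%. Core sites were above single-list sites in all 3. Against sites with Atoh1, at 66.9, 67.2 and 38.1%, they were above in the lowest and highest groups and below in the middle group. Without the sites in the dispersed element described further on, the middle group stood at 71.3% for core sites and 68.6% for sites with Atoh1, with overlapping intervals.

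**Figure D3:**
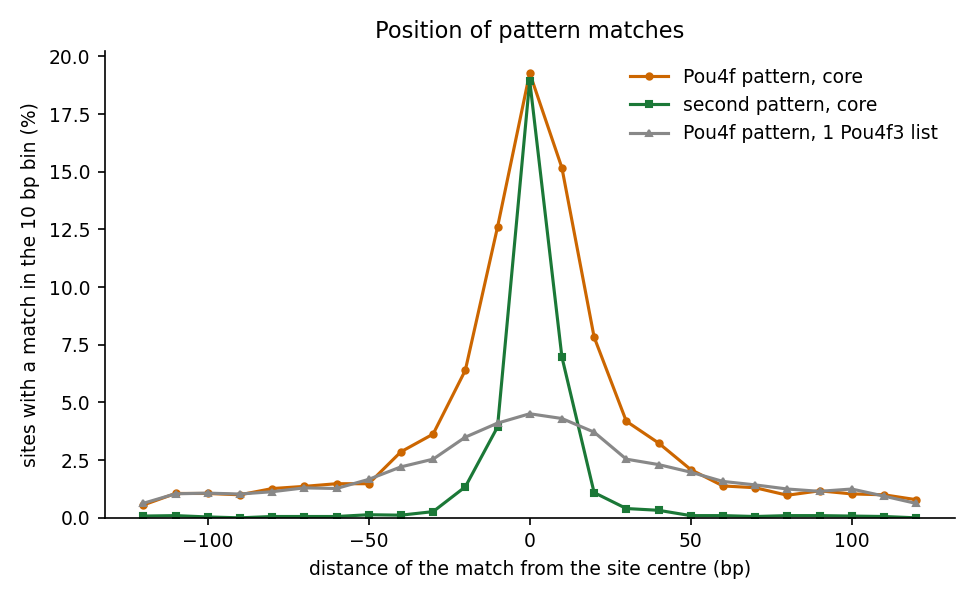
Share of sites (%) with a match in each 10 bp bin against the distance of the match from the site centre (bp), for the Pou4f pattern and for TGCATNATT (the second pattern) at core sites, and for the Pou4f pattern at sites of a single Pou4f3 list. Both core curves peak at the centre, at 19.3 and 18.95%, and the single-list curve reaches 4.51%.

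A further 1826 core sites had no Pou4f pattern. The most frequent 8 letters within the 100 bp around the centre of core sites were ATAATGCA, at 1398 sites (26.8%), against 0.374% of flank windows and 3.82% of sites of a single list. They are part of TGCATNATT read on the other strand, in which the AT-rich letters are joined to TGCAT. This pattern, which was read from the core sites and whose shares are therefore a description, was found at 1760 core sites, or 33.8% (32.5 to 35.1%), against 6.59% of all joined sites and 1.21% of the core flanks. It was found at 20.2% of sites in 3 lists, 12.7% in 2, 6.47% in a single list and 16.6% of sites in 4 lists with Atoh1. Its nearest match lay a median of 4 bp from the centre, and 94.8% of sites with it had it within 25 bp. The pattern overlaps the Pou4f pattern in its letters, and 867 core sites held both. Another 893 held TGCATNATT alone, so that 82.1% of core sites held at least 1 of them and 933 held neither.

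The patterns related differently to the strength of the peaks. In 4 groups of core sites ordered by their lowest fold, TGCATNATT was found at 19.9, 29.5, 36.5 and 51.5% of sites from the weakest to the strongest group, and the Pou4f pattern at 68.2, 64.5, 64.1 and 62.5%. Core sites in the dispersed element described further on had a median lowest fold of 3.85, against 3.28 at the others. They held TGCATNATT at 98.2% and the Pou4f pattern at 11.3%. The 4 groups include these sites and were not computed without them. GCATNATGC, in which GCAT letters lie on both sides, was rare, at 79 core sites (1.52%) against 0.487% of all joined sites and 0.278% of core flanks, and was found at 0.634, 1.41, 1.94 and 2.23% of the 4 groups. Among the 45 sites with every fold at least 10, 29 held the Pou4f pattern, 33 (73.3%) TGCATNATT and 7 (15.6%) GCATNATGC. None of these 45 lacked all 3 patterns (upper limit 7.87%, counting error only), and 884 of all 5208 core sites did. TGCATNATT and GCATNATGC were chosen after the core sequences had been seen, so these counts are a description and no test. The core site with the highest lowest fold of all, left out of the sites printed above because its window holds an annotated exon, lay 19 bp upstream of the predicted gene Gm11574 in an intron of Osbpl7, with folds of 49.2 (iPou4f3), 58.0 (iG+P), 33.2 (iP+A) and 97.5 (iGPA). It held TGCATNATT and no Pou4f pattern.

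Many core sites were copies of each other. Aligned with blastn, 490 core sites matched 1 representative core site, and their majority sequence, 204 bp long, was found in 2448 places of mm9. This dispersed element was found after the sequences had been seen and is described by its sequence, since no repeat annotation was used here. It held 565 core sites, or 10.8% (10.0 to 11.7%), against 6.03% of sites in 3 lists, 2.03% in 2 and 0.719% in a single list. Of sites in 4 lists with Atoh1, 17 (0.932%) lay in a copy, and of 30054 sites with Atoh1 and no Pou4f3 only 1 did. Core sites in copies were spread over 20 chromosomes.

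Printed are 61 bases around the place where the summits fell in 8 copies whose 61 letters occur once among the copies, oriented so that the 9 letters TGCATTATT of the majority sequence read 5′ to 3′. Capitals mark those 9 positions. The first 4 are the core sites in copies with the highest lowest fold, the next 3 are the copies with 1 or 2 altered letters and no peak that had the highest blastn alignment score, which grows with length as well as identity, and the last is the copy with intact letters and no peak that scored highest.
Core, chr12:21534543-21534603, plus strand: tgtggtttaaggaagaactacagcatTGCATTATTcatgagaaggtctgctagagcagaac
Core, chr6:48816691-48816751, plus strand: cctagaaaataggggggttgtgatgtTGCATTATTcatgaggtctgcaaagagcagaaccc
Core, chr14:56571975-56572035, plus strand: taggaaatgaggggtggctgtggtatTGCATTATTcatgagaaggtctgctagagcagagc
Core, chr11:20034824-20034884, minus strand: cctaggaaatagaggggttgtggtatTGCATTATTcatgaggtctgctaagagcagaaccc
No peak, chr7:4164988-4165048, minus strand: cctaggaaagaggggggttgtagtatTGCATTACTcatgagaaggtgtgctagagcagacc
No peak, chr14:112763822-112763882, minus strand: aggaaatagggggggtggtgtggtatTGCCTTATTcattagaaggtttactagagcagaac
No peak, chr11:46447936-46447996, plus strand: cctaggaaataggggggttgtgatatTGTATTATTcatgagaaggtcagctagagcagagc
No peak, chrX:63117270-63117330, plus strand: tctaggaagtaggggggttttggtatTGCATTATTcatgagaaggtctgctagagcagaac

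The copies varied along their whole length, with a median identity to the majority sequence of 84.6%, and were grouped by how many of the 9 letters were altered. Of 1857 copies that cover the 9 positions, 1362 had all 9 letters, and 551 of these were core sites, or 40.5% (37.8 to 43.1%). Any Pou4f3 peak was found at 1003 of them, or 73.6% (71.2 to 76.0%). With 1 letter altered, 10 of 353 copies were core sites (2.83%) and 65 had any Pou4f3 peak, or 18.4% (14.5 to 22.9%). With 2 letters altered, 6 of 75 had any Pou4f3 peak, and with 3 or more or a gap, 2 of 67. Of 591 copies that do not cover the 9 positions, 4 had a Pou4f3 peak. The majority sequence was built from core sites, so the intact letters are those of sites chosen for their peaks, and these shares are a description.

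**Figure D4:**
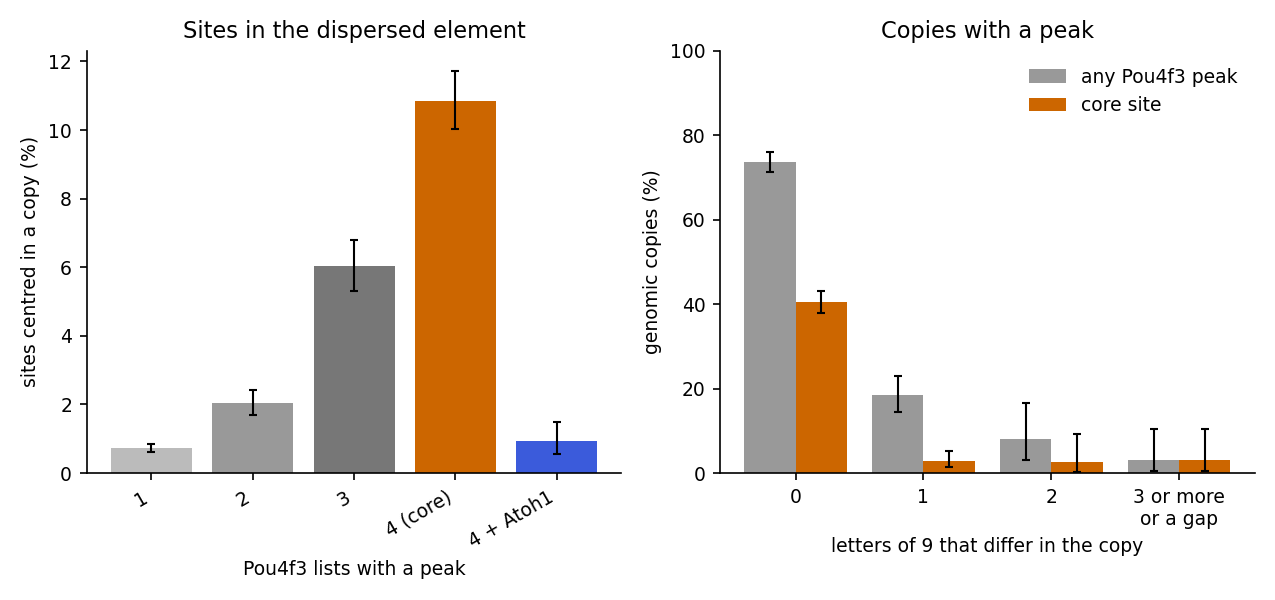
Left, share of sites (%) centred in a copy of the dispersed element, by the number of Pou4f3 lists with a peak; right, share of genomic copies (%) with any Pou4f3 peak and with a core site, by how many of 9 letters differ from the majority sequence. Whiskers are 95% Clopper-Pearson intervals, and the shares on the right go from 73.6 and 40.5% with no letter altered to 18.4 and 2.83% with 1.

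Intact and altered copies also differed where they matched the majority sequence to a like degree. In 3 groups of copies by their identity to the majority sequence, intact copies had any Pou4f3 peak at 68.3, 75.6 and 75.4%, and altered copies at 12.9, 21.5 and 10.2%. Single substitutions differed among themselves, with positions counted from 1 at the 5′ end of TGCATTATT and the majority letter first. Of 90 copies with C3T, 7 had any Pou4f3 peak, and of 68 with G2A, 23 did (33.8%). None of 23 copies with T5C and none of 23 with T8C had a Pou4f3 peak, while 9 of 16 with C3A had one (56.3%). Peaks were called on reads filtered for mapping quality, so a copy with near-identical relatives could carry fewer reads. Among copies whose 61 letters occur once among the copies, 72.8% of 969 intact and 17.1% of 397 altered copies had any Pou4f3 peak. Of intact copies, 70.3% of those with a peak and 73.5% of those without were of this kind. On the X chromosome, 67 of 151 intact copies had a Pou4f3 peak (44.4%), against 936 of 1209 on the autosomes (77.4%).

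Core sites in copies differed from the other 4643 core sites. The Pou4f pattern was found at 11.3% of them and at 71.5% outside, and TGCATNATT at 98.2% of them and at 26.0% outside, where it still marked 1205 sites. Their summits fell a median of 4 bp from the 9 letters. Their median fold was 7.13 in iPou4f3 against 4.64 outside, 6.13 against 4.60 in iG+P, 3.85 against 3.51 in iP+A and 8.16 against 5.68 in iGPA, so the median was higher in each of the 4 lists. A transcription start lay within 1 kb of 1.59% of them and of 10.0% of the others, and 1 carried a Gfi1 peak. Among the 1826 core sites without a Pou4f pattern, 501 (27.4%) lay in a copy.

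Core sites lay near a promoter less often than other joined sites. The share expected of random places in the genome was not computed, so this compares peaks with peaks. All annotated starts, those of small RNAs and pseudogenes included, were counted here. The nearest annotated transcription start was within 1 kb of 475 core sites, or 9.12% (8.35 to 9.94%), against 21.2% of all joined sites. The share was 12.8% for sites in 3 Pou4f3 lists, 18.8% in 2 and 20.6% in a single list. Core sites were 11.5 percentage points below single-list sites (difference of -12.4 to -10.5 points) and lower on 19 of 20 chromosomes. Sites in 4 lists with Atoh1 had a start within 1 kb at 25.8%, and core sites lay 16.6 points below them (difference of -18.8 to -14.5 points). The median distance of a core site to a start was 18.8 kb, against 11.9 kb for single-list sites and 10.8 kb for sites with Atoh1. Almost equal shares of core and single-list sites, 51.1 and 53.0%, lay inside a gene, but 3.57% of core sites were centred in an exon against 10.6%. The X chromosome held 33 core sites (0.634%), against 1.62% of single-list sites.

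A Gfi1 peak, known only from iGPA and from 1 library, was found at 85 core sites, or 1.63% (1.31 to 2.01%), against 3.81% of all joined sites. The latter include 914 sites found in the Gfi1 list alone and all sites with Atoh1, which the rule keeps out of the core. Single-list sites had one at 0.825%, 0.807 points (0.465 to 1.21) below the core sites, which were higher on 18 of 20 chromosomes. The share was 1.08% at sites in 2 Pou4f3 lists and 1.25% at sites in 3, and the core sites' difference from the latter, 0.382 points, had an interval that includes 0 (-0.116 to 0.866). At sites in 4 lists with Atoh1 the share was 15.7%, 14.0 points above the core sites (core minus these of -15.8 to -12.4 points), on 20 of 20 chromosomes. Core sites with a Gfi1 peak were often promoter sites: 31 of the 85 (36.5%) lay within 1 kb of a start, against 8.67% of the other core sites. This was near the 38.9% of the 914 sites found in the Gfi1 list alone. The Pou4f pattern was found at 44 of the 85, and the Gfi1 sequences AATCACTGC or AATCACAGC at 2. Over all core sites, these sequences were found at 36 (0.691%), against 0.701% of all joined sites. The median Gfi1 fold at the 85 sites was 4.40, between 3.05 and 9.90.

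The strongest core sites with a Gfi1 peak were the Gemin5 site printed above, with a Gfi1 fold of 4.18, and a site 2200 bp upstream of 4930485B16Rik with a Gfi1 fold of 5.06. The latter is printed because 1 of its 2 Pou4f matches overlaps TGCATNATT. Its Pou4f3 folds were 26.4 (iPou4f3), 20.9 (iG+P), 11.3 (iP+A) and 30.1 (iGPA).
4930485B16Rik, chr10:92546523-92546603, plus strand: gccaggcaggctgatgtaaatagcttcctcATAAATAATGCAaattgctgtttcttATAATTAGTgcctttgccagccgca

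E-boxes, the sites of Atoh1, were not more frequent at core sites than beside them. CAGCTG was found at 7.70% of core sites, 10.8% of their flanks and 8.29% of single-list sites, a difference from the latter of -0.586 points whose interval of -1.39 to 0.267 includes 0. At sites in 4 lists with Atoh1 it was found at 26.5%, 18.8 points above the core sites. CAGATG was found at 13.8% of core sites and 28.7% of sites with Atoh1. The rule parts these classes by Atoh1 peaks, and Atoh1 binds E-boxes, so both differences are a description. The octamer ATGCAAAT, bound by POU factors of other classes, was found at 2.23% of core sites and 1.93% of their flanks. The Sox sequence ACAATGG was found at 8.47% of core sites, but at 51.5% of those in the dispersed element and 3.23% of those outside it, near the flank share of 3.68%. GGGCGGGG, a KLF and Sp sequence of CpG-rich promoters, was found at 1.59% of core sites, 3.21% of single-list sites and 6.63% of sites with Atoh1.

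Genes were described by the core sites whose nearest transcription start was theirs, with starts of small RNAs and pseudogenes left out. Of 26541 annotated genes, 3858 had at least 1 core site (14.5%), 2937 of them exactly 1 and 41 at least 5. Long genes have more sequence nearby, and the share was 8.26% for genes under 10 kb, 15.0% for 10 to 100 kb and 41.3% above 100 kb. Gene length leaves out the intergenic sequence to which a start is nearest, and the shares below were not adjusted for it. The genes with the most core sites were Cntn5 and Odz3, both encoding neuronal adhesion proteins, with 8 each. Pcdh9, a protocadherin, and Prim2, a primase subunit, had 7 each, and 1700025G04Rik, Arid1b, Cdh13, Dsc3, G930045G22Rik and Magi1 had 6 each. Cntn5 spans 1244 kb, and the 8 sites near it had lowest folds of 2.52 to 4.75, with the Pou4f pattern at 4. The 8 sites near Odz3 had lowest folds of 2.49 to 16.3, with the pattern at 6.

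**Figure D5:**
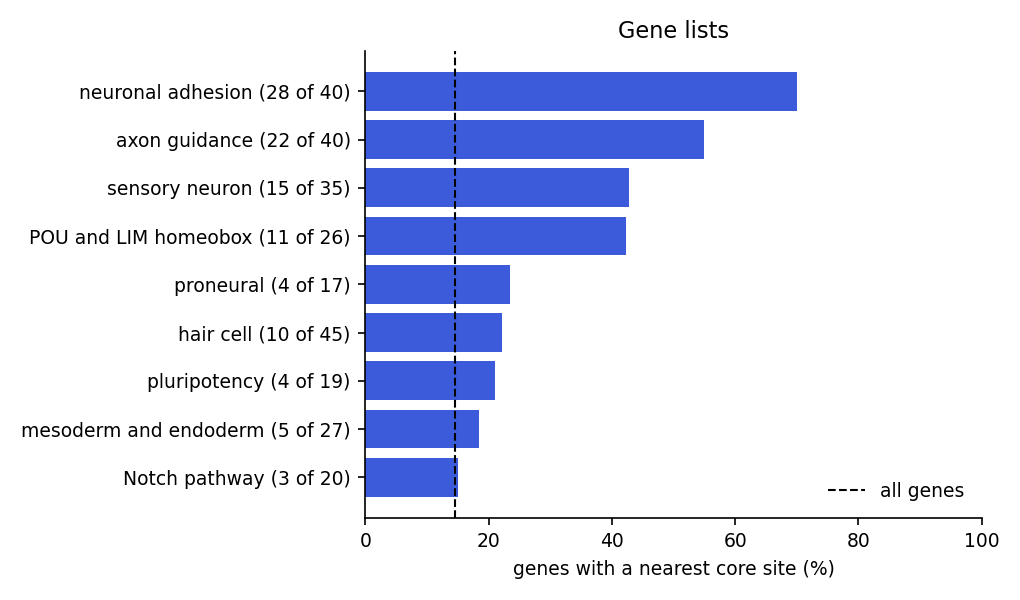
Share of genes (%, bars from 0) in 9 lists that had at least 1 core site nearest to their start, with the number of genes in parentheses; the dashed line is the share of all genes, 14.5%. Neuronal adhesion genes stand at 70.0% and axon guidance genes at 55.0%, and Notch pathway genes at 15.0%.

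Of the neuronal lists, adhesion genes had a core site at 28 of 40 (70.0%, 88 sites) and axon guidance genes at 22 of 40 (55.0%, 43 sites). These genes are long, with median lengths of 614 and 190 kb. Among genes above 100 kb, where the share of all genes was 41.3%, 26 of 37 adhesion genes (70.3%) and 19 of 28 guidance genes (67.9%) had one. The strongest adhesion site after the one in Odz3 lay intergenic to Lsamp, a limbic adhesion protein, 1179974 bp from its start, with folds of 10.1 (iPou4f3), 10.7 (iG+P), 9.51 (iP+A) and 22.4 (iGPA). Sema6d, a transmembrane semaphorin, had a site 343 bp downstream of a start and within its UTR, with folds of 13.8, 9.85, 9.06 and 16.0. Epha4, an ephrin receptor, had 5 core sites, the strongest in an intron with folds of 7.37, 8.21, 7.36 and 11.9.

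Genes of sensory neurons had a core site at 15 of 35 (42.9%), and POU and LIM homeobox genes at 11 of 26 (42.3%), against 14.5% of all genes. Pou4f1 and Pou4f2 are counted in both lists. The sensory neuron genes with a site included Pou4f1, Pou4f2, Ntrk2, Ntrk3, Runx1, Scn9a, Trpa1, Trpm8, Ret, Prrxl1, Nefl, Nefm, Ntf3 and Eya1, which cover neurotrophin signalling, sensory channels, neurofilaments and placode development. The POU and LIM genes were Pou2f1, Pou3f1, Pou3f3, Pou4f1, Pou4f2, Pou4f3, Pou6f1, Lhx2, Lhx6, Lmx1a and Lmx1b, and the list is short in length, with a median of 12.9 kb. In genes under 10 kb, where the share of all genes was 8.26%, 5 of 12 POU and LIM genes had a site (41.7%) and 4 of 10 sensory neuron genes. At 10 to 100 kb, 5 of 18 sensory neuron genes (27.8%) and 4 of 11 POU and LIM genes (36.4%) had one, against 15.0% of all genes. Above 100 kb, 6 of 7 sensory neuron genes and 2 of 3 POU and LIM genes had one, against 41.3% of all genes. Each of the Pou4f family's 3 genes thus had a core site nearest to its start, 4 of them at Pou4f3, 1 at Pou4f1 and 1 at Pou4f2.

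The sites with the highest lowest fold in these lists are given with their letters where the printed window holds a match, since they show the patterns beside known regulators. Eya1, a phosphatase and co-activator of otic and sensory placodes, had a site 38479 bp upstream with folds of 15.3 (iPou4f3), 17.8 (iG+P), 10.3 (iP+A) and 22.7 (iGPA). Pou6f1 had a site in its intron with folds of 18.1, 10.2, 8.94 and 7.99, where iPou4f3 was highest and iGPA lowest, as iGPA was at only 149 of all core sites (2.86%). The site in an intron of Lmx1b, a LIM homeobox regulator of neurons and limbs, had folds of 17.6, 18.8, 9.51 and 33.1. The 81 bases around its centre held none of the 3 patterns, but did hold ATAATGCA, the most frequent 8 letters named above. The site 8652 bp downstream of the start of Pou4f2 had folds of 6.18, 6.90, 7.13 and 12.2, with no pattern and a stretch of CA repeats beside the centre.
Eya1, chr1:14338720-14338800, plus strand: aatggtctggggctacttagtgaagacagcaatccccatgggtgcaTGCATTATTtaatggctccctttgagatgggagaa
Pou6f1, chr15:100429612-100429692, plus strand: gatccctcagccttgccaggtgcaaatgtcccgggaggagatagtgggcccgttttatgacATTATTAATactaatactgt

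Hair cell genes had a core site at 10 of 45 (22.2%, 17 sites), against 14.5% of all genes, and their median length was 47.2 kb. Within length classes the share was 3 of 11 under 10 kb (27.3%, against 8.26% of all genes), 3 of 22 at 10 to 100 kb (13.6%, against 15.0%) and 4 of 12 above 100 kb (33.3%, against 41.3%), so that it lay above all genes in the shortest class alone. They were Myo6, Otof, Cdh23, Gfi1, Pou4f3, Barhl1, Slc17a8, Grxcr1, Whrn and Rfx3. The strongest site lay in an intron of Rfx3, a ciliary regulator, with folds of 6.66 (iPou4f3), 5.91 (iG+P), 5.09 (iP+A) and 7.86 (iGPA). Barhl1, a homeobox gene of hair cells and hindbrain neurons, had a site in its intron, 1842 bp from the start, with folds of 5.23, 8.21, 4.64 and 11.7 and 2 Pou4f matches in the window printed. No core site near a hair cell gene had a lowest fold above 5.09.
Barhl1, chr2:28766133-28766213, plus strand: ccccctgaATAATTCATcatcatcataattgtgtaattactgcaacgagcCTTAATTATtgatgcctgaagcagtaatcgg

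Proneural genes had a site at 4 of 17, or 23.5% against 14.5% of all genes (Neurog1, Neurog2, Neurod4 and Olig3), and at 3 of 15 genes under 10 kb (20.0%, against 8.26%). Neurog1, the proneural factor of cranial sensory neurons, had a site 152 bp upstream of its start with folds of 17.1 (iPou4f3), 16.7 (iG+P), 13.5 (iP+A) and 20.8 (iGPA), in a GC-rich stretch where the Pou4f pattern and TGCATNATT overlapped. Of the Notch pathway, 3 of 20 genes had a site, Jag1, Notch2 and Lfng, a share of 15.0% that lay at the 14.5% of all genes. The strongest of the 3 sites near Jag1, a Notch ligand of the otic sensory patches, had folds of 5.35, 3.94, 4.42 and 6.12.
Neurog1, chr13:56353636-56353716, plus strand: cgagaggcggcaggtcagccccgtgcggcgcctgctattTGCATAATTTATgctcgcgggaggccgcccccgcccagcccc

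Pluripotency genes had a site at 4 of 19 (21.1%), and mesoderm and endoderm genes at 5 of 27 (18.5%), against 14.5% of all genes. The latter were T, Mixl1, Gata4, Hnf4a and Foxc1. These lists are short, with median lengths of 6.55 and 5.49 kb. Under 10 kb, 2 of 12 pluripotency genes (16.7%) and 3 of 17 mesoderm and endoderm genes (17.6%) had a site, against 8.26% of all genes. All 9 gene lists thus stood above the share of all genes, with the Notch pathway nearest to it at 15.0%. A share above 14.5% was therefore not particular to the neuronal or sensory lists. Zfp42, a stem cell marker also named Rex1, had a site 99594 bp upstream with folds of 13.6 (iPou4f3), 11.3 (iG+P), 5.32 (iP+A) and 20.2 (iGPA). The site nearest to T, the mesoderm factor brachyury, lay 15230 bp upstream in an intron of T2, with folds of 8.56, 13.7, 6.68 and 13.5, and its window held 3 Pou4f matches.
Zfp42, chr8:44491917-44491997, plus strand: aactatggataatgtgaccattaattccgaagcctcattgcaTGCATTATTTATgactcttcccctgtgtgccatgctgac
T, chr17:8612018-8612098, plus strand: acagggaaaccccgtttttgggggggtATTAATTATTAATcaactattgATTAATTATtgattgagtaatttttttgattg

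At the edge of the rule, the 2 core sites with the least significant peak were a site near Gm12130 and a site 7 bp from the start of Manbal. Both had a fold of 2.30 in iG+P with a -log10 q of 1.35. Just outside, the strongest sites in 3 Pou4f3 lists were at Ell, an elongation factor, and in an intron of Xkr4. At Ell, 453 bp upstream of the start, the folds were 20.7 (iG+P), 16.0 (iP+A) and 38.0 (iGPA). A kept iPou4f3 peak with a fold of 34.5 spans the same place, but its summit lay 387 bp away and its window did not join. At Xkr4 the folds were 7.73 in iPou4f3, 7.44 in iG+P and 10.8 in iGPA, no iP+A peak was called there, and the site lies in a copy of the dispersed element. Of all 4079 sites in 3 lists, 33 were overlapped by a kept peak of the missing list whose summit lay elsewhere, 92 by a called peak that was not kept, and 3954 (96.9%) by no called peak of that list. The list missing was iP+A at 2506 of them (61.4%), iGPA at 718, iPou4f3 at 599 and iG+P at 256. Among core sites, 8 were overlapped by the whole interval of a kept Atoh1 peak whose summit lay outside the joined site.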

How the data were processed

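ChIP-seq was analysed from the peak lists of 6 induced mESC lines. Per the methods of the study, the authors trimmed reads with Trimmomatic, aligned them to mm9 with Bowtie 2, removed duplicates with Picard, filtered on mapping quality and on blacklisted regions, and called peaks with MACS2 on merged ChIP libraries against merged inputs. Each deposited list of called peaks holds a ratio, the fold enrichment over local background at the summit, and the −log10 of the p-value and of the q-value, all computed by the authors' peak caller. A second deposited list holds the summit positions of the peaks that the authors kept and a signal column that is not defined and was not used. The filter that removed 14.1 to 35.5% of called peaks is not given in the sources used here.

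Kept peaks were taken from the summit lists, and folds from the called peaks of the same name. Sequence was read from NCBIM37, the assembly of mm9, and genes from GENCODE M1. Patterns were searched on both strands. Copies of the dispersed element were found with blastn 2.17.0+ in 2 rounds (alignments of at least 50 bp). Other steps used Python 3.11.15, pandas 2.3.3, scipy 1.17.1 and statsmodels 0.14.6. The join, the searches and the intervals were tested on simulated data.

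The sites, patterns and gene lists were chosen with earlier results of these data known. The named sites are, outside chromosome 18, the 8 core sites with the highest lowest fold whose printed window holds no exon and that lie outside tandem repeats, up to 2 sites for each gene list and the 2 highest with a Gfi1 peak and without the Pou4f pattern. They also include the 2 just inside and the 2 just outside the rule, and the 10 genes with most core sites. A site and a gene that these rules name are not reported here. Alternatives covered the joined window, the kept peaks, the peak threshold, the list length, each Pou4f3 list, the pattern and the starts. Leaving out sites in copies of the dispersed element and adding TGCATNATT were chosen after seeing the data. So was leaving out small RNA and pseudogene starts from the share within 1 kb. For the naming of genes these starts were left out throughout.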

Additional observations from a re-analysis of the deposited data

Results flagged for a closer look

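Core sites carry no kept Atoh1 peak by their rule, but the longer lists of called peaks were not part of it. In these lists, 40 of the 5208 core sites (0.768%, Clopper-Pearson interval 0.549 to 1.04%) had an Atoh1 peak that was called and not kept, with its summit window joined to the site. They were seen because they lie in data that the comparisons above did not use. The 4 Atoh1 lists held 31043 called peaks that were not kept. The share of all joined sites with such a peak was not computed, so 0.768% has no background beside it. The iP+A list gave 22 (median fold 2.58), iG+A 14 (2.69), iGPA 10 (2.71) and iAtoh1 6 (2.75), and the highest fold among them was 3.60. No library without Atoh1 was precipitated through the FLAG tag, so the level in control samples was not analysed here.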

How the results depend on the processing

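No paired analysis was possible because each Pou4f3 and Atoh1 list was called on merged replicates, and for the same reason no replicate could be left out. Over 13 alternatives the number of core sites ran from 2463 to 7714 and left a range of 1.5 times around 5208 only with a −log10 p of at least 10 in every list, at 2463. The share with the Pou4f pattern was 64.9% and became 62.0% with that threshold, 62.6% without the iGPA list in the rule, 14.3% for the exact pattern, 30.0% for TAATTA, 58.0% in 100 bp, 71.5% without copies of the dispersed element and 82.1% with TGCATNATT counted as well. In 17 of 17 alternatives it stayed above single-list sites, by 8.55 to 43.0 percentage points. The share within 1 kb of a start was 9.12% and became 7.78% with 1000 bp windows, 10.8% with the −log10 p threshold, 11.9% without the iGPA list, 25.2% within 5 kb, 8.14% with protein-coding starts and 10.0% without copies. It stayed below single-list sites in 16 of 16 alternatives, with core minus single-list differences of -18.5 to -5.30 points. The share with a Gfi1 peak stayed within its interval in 13 of 13 alternatives, from 1.38 to 1.88%, and above single-list sites by 0.506 to 1.09 points. Of 28 named core sites, 22 remained core sites under each of 11 settings of the rule. The Atoh1-free choice rests on the summit join and on merged lists of unknown depth, so a missing Atoh1 peak says only that none was kept there. The causes of these changes were not tested.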
